A study of Hordeum vulgare with 64 samples.

Results

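The 61 genes described here were chosen by their levels in unstressed barley: in the controls of each of 4 sets, salt leaves, salt roots, waterlogging leaves and waterlogging roots, the mean log2(FPKM + 1) of the variety TX exceeded that of the variety NN by at least 1.5. They are 61 of the 39734 rows with HORVU identifiers, the barley gene models of the expression tables. FPKM counts the fragments of a gene relative to its exon length and to the mapped fragments of the library, so levels can be compared between genes, and a difference on the log2(FPKM + 1) scale understates the change of genes near 0. The files do not pair HORVU identifiers with names, so no gene name, role or sequence is given for any of the 61, and the chromosome is the one written in the identifier.

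NN is the variety labelled Nasonijo, sensitive to salt and waterlogging, and TX is TX9425, tolerant to both. Leaves and roots of seedlings were sampled without stress (0 h), in the salt experiment at 3 times (1 h, 24 h, 10 d) in 300 mM NaCl, and in the waterlogging experiment at 3 times (1 h, 72 h, 2 w) under 1 cm of tap water. Each of the 32 groups, 1 variety, tissue and time of 1 experiment, had 2 libraries, 64 in all, while the methods state 3 biological replicates. Nothing in the labels says whether the 2 came from separate plants, so p-values measure the spread between these libraries only. Both varieties shared a pot, the controls were all of 0 h, and no unstressed plants of the age of the late groups were used here, so the late times hold age as well as stress. In whole leaves and roots, fewer cells of a type and less RNA per cell cannot be told apart.

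Varieties of a crop differ in regulatory alleles, in the genes they carry and in how closely their transcripts resemble the reference sequence, and each of these can leave a gene measured in one variety and near zero in another. Salt exposes roots to osmotic stress and sodium, which later reaches the leaves, and waterlogging deprives the root of oxygen. Expression values alone cannot tell apart a silent gene, an absent gene and a gene whose reads do not match the reference.

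The FPKM of a salt library summed to 383344 to 437568 and those of a waterlogging library to 408505 to 596521, and their relative depth, taken from the step between low values, was 0.201 to 1.06 of that of replicate 1 of the salt NN control roots. Waterlogging libraries kept their tissue by 13 rows chosen as high in leaves and near 0 in roots of the salt libraries. The salt libraries were therefore not checked themselves. The 13 rows had medians of at least 24.5 FPKM in every waterlogging leaf library and at most 0.0435 FPKM in any waterlogging root library. For 5 rows chosen as high in roots the separation was weaker. Their medians were at least 5.09 FPKM in waterlogging root libraries and up to 0.7775 FPKM in a waterlogging leaf library. Rows of the ENSRNA class held up to 36.1% of the FPKM in waterlogging libraries and at most 0.658% in salt libraries.

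At the border of the list, HORVU5Hr1G006180 and HORVU5Hr1G119500 were just inside with a smallest control difference of 1.54 and 1.53, and HORVU4Hr1G002230 and HORVU1Hr1G067820 just outside with 1.48 and 1.45. The smallest of the 4 control differences was 1.53 to 5.51 over the 61 genes, with a median of 2.33, and was above 3 in 12 genes. The rule asks all 4 sets at once: 508 rows reached 1.5 in salt leaves, 793 in salt roots, 184 in waterlogging leaves and 252 in waterlogging roots, and 61 in all 4. The opposite rule, NN above TX by at least 1.5 in all 4 sets, takes 67 genes.

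The genes were measured in TX at low to middling levels. The median over the 24 stressed TX libraries was 1.48 to 220.1 FPKM between genes, with 17 genes below 5 FPKM, 36 between 5 and 20 FPKM and 8 above 20 FPKM. In TX, 58 of the 61 were above 0.5 FPKM in all 24 stressed libraries. The other 3 were HORVU1Hr1G067870 and HORVU5Hr1G068870, each above 0.5 FPKM in 23, and HORVU1Hr1G025380, above it in 22. HORVU1Hr1G025380 was listed at 0 in replicate 1 of TX leaves after 10 d of salt and at 4.16 FPKM in replicate 2, and at 9.90 and 0.145 FPKM after 24 h, so its replicates disagreed.

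**Figure D1:**
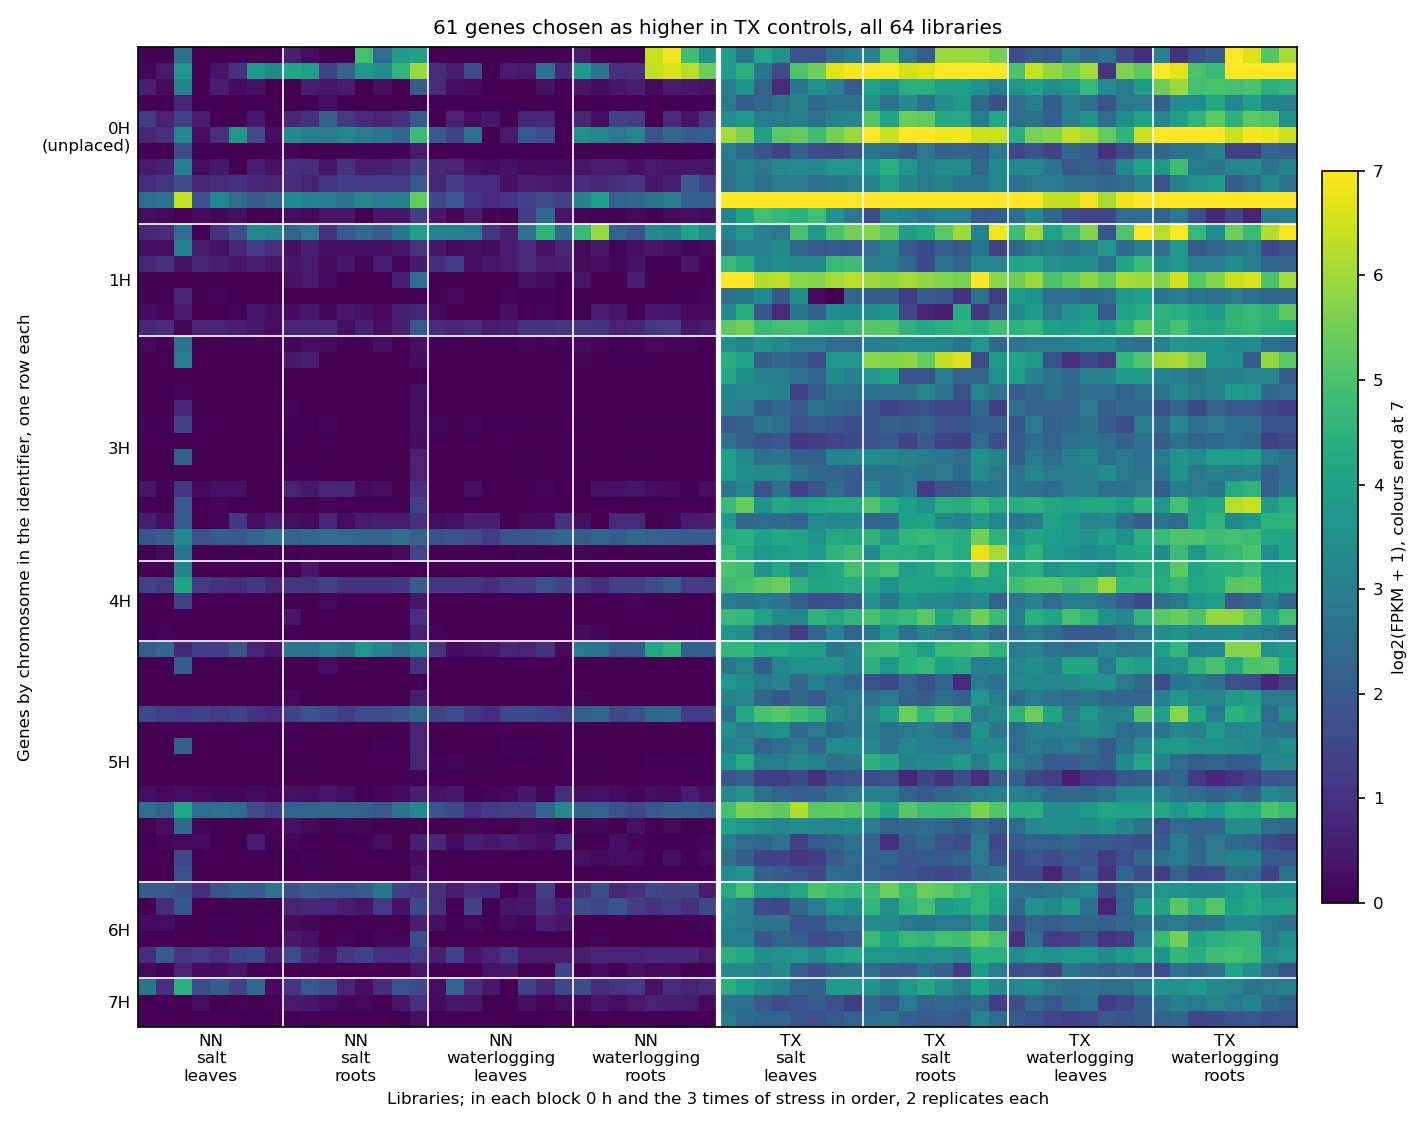
Level of each of the 61 genes, log2(FPKM + 1) as colour, in all 64 libraries, with rows ordered by the chromosome in the identifier and columns by variety, experiment, tissue, time and replicate. The NN columns on the left are dark apart from a few rows and from 2 salt columns, replicate 1 of the leaves at 1 h and replicate 2 of the roots at 10 d, and the TX columns are lit in nearly every cell.

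Replicates of NN in 2 salt groups stood apart from the other NN libraries, and this touches the results in those groups. In 22 of the 24 stressed NN libraries 7 to 19 of the 61 genes were above 0.5 FPKM, but 39 were in 2 salt libraries of NN, the leaf replicate 1 at 1 h and the root replicate 2 at 10 d. Of the 61 genes, 31 were at or below 0.5 FPKM in all 22 other libraries. The other replicate of each of these 2 groups is among the 22, so its low levels in the 31 genes follow from that choice. In replicate 1 of the NN leaves at 1 h, 17 of those 31 were above 0.5 FPKM, at a median of 13.1% of the TX mean of the same group and with quartiles of 0 and 53.0%, while replicate 2 had a median of 0%. In replicate 2 of the NN roots at 10 d, 11 of the 31 were above 0.5 FPKM, at a median of 5.21% with quartiles of 2.27 and 6.61%, and replicate 1 had a median of 0%. The first library thus held some of the genes at TX levels and lacked others, and the second held 25 of them at up to 12.5% of TX and had 6 listed at 0. In the other direction, of the 67 genes chosen as higher in NN, TX roots after 10 d of salt held 42 (replicate 1) and 27 (replicate 2) above 0.5 FPKM, and those after 1 h held 33 in replicate 2, against 13 to 22 in the other TX libraries. The part of these libraries in the results was not tested beyond leaving the 2 NN libraries out.

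**Figure D2:**
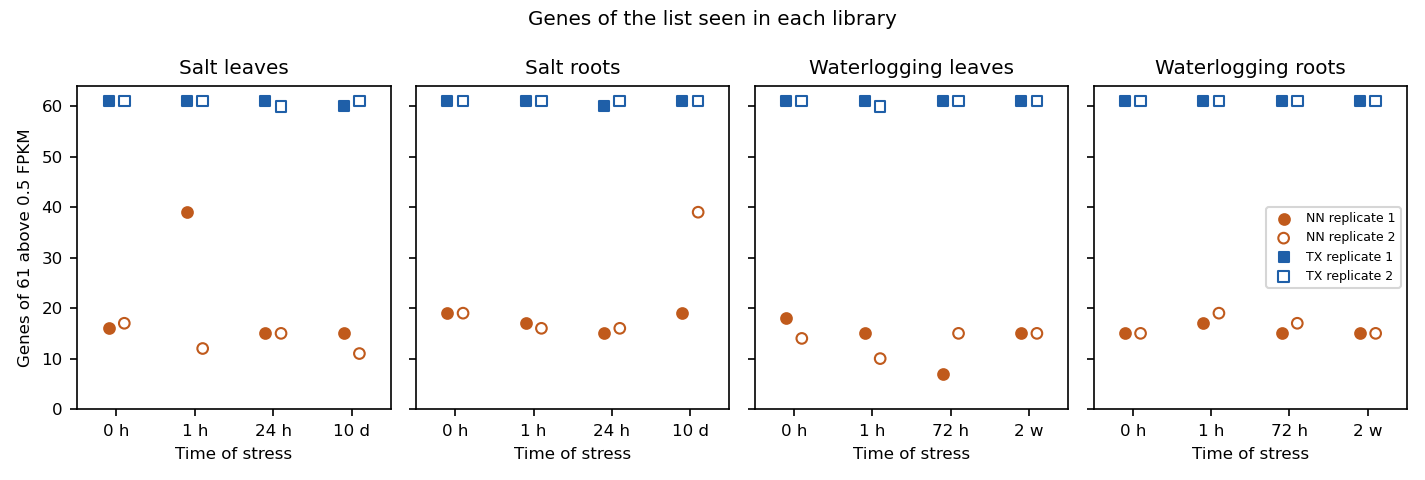
Number of the 61 genes above 0.5 FPKM in each library by time of stress, with NN as circles, TX as squares, replicate 1 filled and replicate 2 open. TX libraries hold 60 or 61, and NN libraries hold 7 to 19 except for 39 in 1 salt leaf library at 1 h and 39 in 1 salt root library at 10 d.

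**Figure D3:**
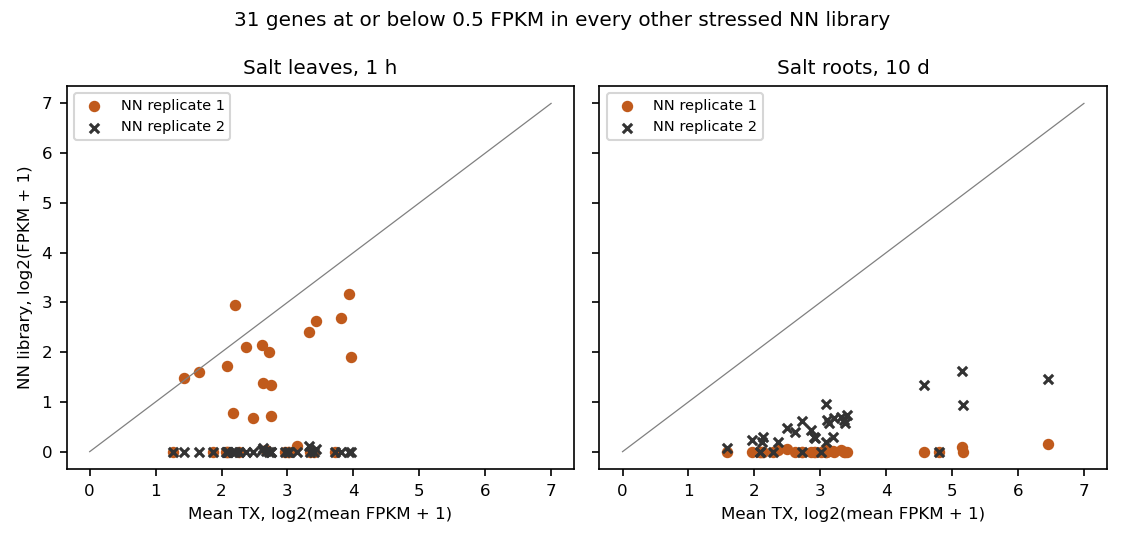
Level in the 2 NN replicates against the TX mean of the same group, log2(FPKM + 1) on both axes, for the 31 genes at or below 0.5 FPKM in all 22 other stressed NN libraries, with the line of equal levels. In salt leaves at 1 h, replicate 1 holds 17 genes above 0.5 FPKM, some at the line, and in salt roots at 10 d replicate 2 holds 11, all far under it. The other replicate of each group is among the 22, so its low levels follow from the choice of the 31.

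The first question was whether the difference seen without stress was also present under stress, in libraries the choice did not use. In 731 of 732 values, 61 genes in 12 stressed comparisons, TX was above NN. The exception was HORVU0Hr1G007650 in salt leaves at 1 h, and 60 genes were above 0 in all 12. The difference was above 1 on the log2(FPKM + 1) scale in all 12 for 48 genes. These counts were not made over all tested genes. The median over the 61 genes was 2.10 to 3.02 log2 units by comparison, against -0.17 to 0.13 over all genes tested.

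A gene was called where limma, fitted on the 12 stressed libraries of an experiment and tissue, gave a difference of more than 1 log2 unit with a p, adjusted by Benjamini-Hochberg over all genes, under 0.05. In salt leaves TX was higher in 33 of the 61 at 1 h, where 0.962% of all tested genes were called higher, in 50 at 24 h (1.88%) and in 55 at 10 d (2.86%). In salt roots 53 were called at 1 h (0.787% of all genes), 50 at 24 h (0.943%) and 51 at 10 d (1.56%). In waterlogging leaves the counts were 44 at 1 h (0.405%), 40 at 72 h (0.443%) and 43 at 2 w (0.624%), and in waterlogging roots 59 at 1 h (1.2%), 59 at 72 h (2.03%) and 58 at 2 w (1.24%). No gene of the list was called lower in TX in any of the 12. By gene, 20 were called in all 12 comparisons, 42 in at least 9 and 59 in at least 6. HORVU0Hr1G000730 and HORVU1Hr1G005230 were called in 4 each. No such count was made over all tested genes, so no share stands beside these.

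**Figure D4:**
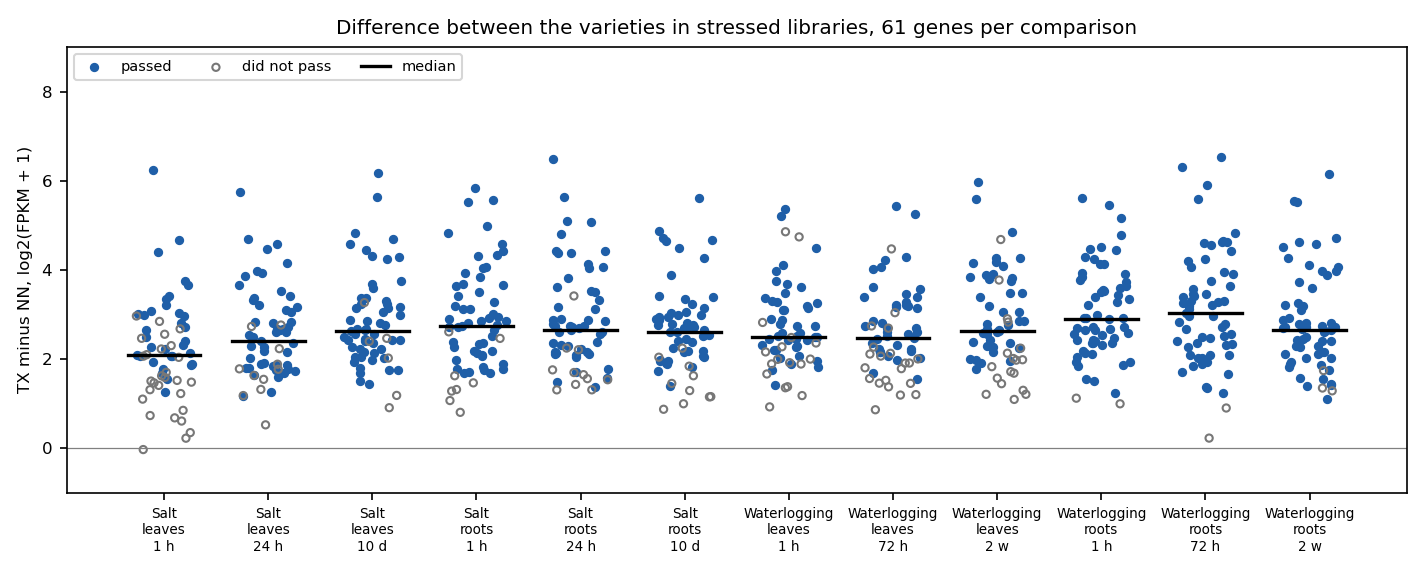
TX minus NN on the log2(FPKM + 1) scale in each of the 12 stressed comparisons, 1 point per gene, filled blue where it passed the test and open grey where it did not, with the median as a bar. The medians lie between 2.10 and 3.02, the open points are most frequent in salt leaves at 1 h and in waterlogging leaves, and 1 point is below 0.

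All 61 genes passed the filter on low values, but 43 in salt leaves, 39 in salt roots, 40 in waterlogging leaves and 43 in waterlogging roots passed it through TX alone, so those counts hold genes that entered the test because TX was high. Among the genes also seen in NN, at 0.5 FPKM or more in at least 2 stressed NN libraries of the fit, 7, 13 and 13 of 18 were called in salt leaves in the order of the times, and 17, 17 and 17 of 22 in salt roots. In waterlogging leaves 12, 11 and 9 of 21 were, and in waterlogging roots 18, 17 and 15 of 18. Of all genes seen in NN by the same limit, TX was called higher in 0.552, 1.31 and 2.26% in salt leaves, 0.319, 0.449 and 1.04% in salt roots, 0.106, 0.106 and 0.207% in waterlogging leaves, and 0.539, 1.33 and 0.559% in waterlogging roots. Among the 18 to 22 genes of the list every value was above 0 except 1 in salt leaves at 1 h.

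Some of the counts changed when libraries were left out. Without the 2 NN libraries that stood apart, 56 of the 61 were called in salt leaves at 1 h in place of 33, and the lowest difference there was 1.27 in place of -0.03. In salt roots at 10 d the count was then 42 in place of 51, with a median difference of 2.77 in place of 2.61. In salt leaves at 24 h the count fell to 30 without replicate 1 of NN, 29 without replicate 2 of NN and 30 without replicate 2 of TX, and at 10 d to 35 without replicate 1 of TX. In waterlogging leaves it was 17 to 23 at 1 h without any 1 library of the compared groups, 21 at 72 h without either NN library and 25 without replicate 1 of TX. Leaving out the 3 waterlogging leaf libraries with over 14% of their FPKM in ENSRNA rows, a choice made after seeing the data, left 9 libraries and counts of 12, 0 and 8 at the 3 times. All 61 values stayed above 0 there, with medians of 2.49, 2.65 and 2.57 and with 59, 55 and 57 of the 61 at an unadjusted p under 0.05 in limma, as were 5.32, 3.11 and 13.7% of all genes. NN then had 1 library at 72 h and 1 at 2 w and TX had 1 at 72 h, and limma takes a lone library to vary like the other groups.

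Separation of single libraries was described without a fit. In 32 of the 61 genes the lowest of the 24 stressed TX libraries was above the highest of the 24 stressed NN libraries. This held for 0.286% of the 24818 genes with at least 0.5 FPKM in 2 or more stressed libraries, the 61 included. Without the 2 NN libraries it was 48 of the 61, against 0.482% of 24703 genes. Genes also seen in NN were not counted apart here. Over all 24 stressed NN libraries 3 of the 61 stayed at or below 0.1 FPKM in every library, 5 more at or below 0.5 FPKM, and 5 were above 0.5 FPKM in every library. Without the 2 libraries these numbers were 23, 8 and 5 of 61, so the list holds both genes near 0 in NN and genes measured in both varieties.

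HORVU1Hr1G015610 had the largest smallest control difference of the list, 5.51 on the log2(FPKM + 1) scale. In the 24 stressed TX libraries its lowest, median and highest levels were 31.2, 55.6 and 129.8 FPKM. In the 24 stressed NN libraries they were 0, 0 and 4.43 FPKM, and the highest was the root replicate 2 at 10 d of salt that stood apart, without which it was 0.518 FPKM. TX and NN did not overlap, and limma gave differences of 4.88 to 6.54 in the 12 comparisons. It passed in all 12, with an SE of 0.55 and an adjusted p of 0.00139 where it was smallest, in salt roots at 10 d.

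HORVU0Hr1G027130, the second by the rule and the gene with the highest stressed TX median, was measured in both varieties. In stressed TX its lowest, median and highest levels were 66.4, 220.1 and 538.2 FPKM, and in stressed NN 0.855, 3.96 and 82.4 FPKM. The highest NN value was replicate 1 of the leaves at 1 h of salt, beside 2.26 FPKM in replicate 2, and without the 2 libraries the NN maximum was 8.68 FPKM. The groups overlapped only through that library, and in salt leaves at 1 h the limma difference of 2.96 (SE 1.11) did not pass (adjusted p = 0.271). In the other 11 comparisons it passed, with differences of 4.49 to 6.15.

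HORVU4Hr1G032080 had, after HORVU1Hr1G015610, the largest smallest difference under stress. Its stressed TX libraries were at 8.21 to 57.6 FPKM with a median of 23.2, and its stressed NN libraries were listed at 0 except for 0.918 FPKM in replicate 2 of the roots at 10 d of salt. The varieties did not overlap. Its smallest difference was 3.66 (SE 0.40, adjusted p = 0.00107 in limma), in salt leaves at 1 h. HORVU5Hr1G027630 and HORVU3Hr1G037440, the latter chosen after its values were seen, were listed at 0 in all 32 NN libraries, the 2 that stood apart included. HORVU3Hr1G037440 was at 2.38, 6.99 and 12.9 FPKM (lowest, median, highest) in stressed TX.

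At the other end, HORVU0Hr1G007650 and HORVU7Hr1G018110 had the lowest of the smallest differences under stress, both in salt leaves at 1 h. HORVU0Hr1G007650 was at 3.67 and 0.821 FPKM in the TX replicates and at 7.88 and 0 FPKM in the NN replicates, so the groups overlapped. Its difference was -0.03 (SE 0.87, adjusted p = 1 in limma), and 1.54 without NN replicate 1. In waterlogging roots the same gene was at 20.1 to 32.1 FPKM in TX and at 0.120 to 0.507 FPKM in NN, with no overlap, and passed at all 3 times with differences of 4.44, 4.63 and 4.11.

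HORVU7Hr1G018110 was at 10.2 and 7.37 FPKM in TX leaves at 1 h of salt and at 21.3 and 2.09 FPKM in NN. The NN replicates lay on either side of TX, and the difference was 0.22 (SE 0.86, adjusted p = 0.954 in limma). Without NN replicate 1 it was 1.65 and did not pass (adjusted p = 0.325), and without replicate 2 it was -1.20. In waterlogging roots it passed at all 3 times, with differences of 2.44, 2.33 and 2.15.

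The second question was how the genes moved over the course of stress, from 1 h to the last time. Against the controls, which the choice used, the values are a description only: in salt leaves the median change of the 61 genes in TX was -0.70 at 1 h, -0.77 at 24 h and -0.50 at 10 d, where all genes seen had medians of -0.27, -0.35 and -0.08. In TX of the other sets it was -0.09, -0.23 and 0.04 in salt roots, -0.10, -0.17 and 0.06 in waterlogging leaves and -0.16, -0.04 and -0.51 in waterlogging roots, in the order of the times. In NN salt leaves at 1 h, the group with a replicate that stood apart, it was 0.36. The comparison of the last time with 1 h uses no control library.

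In TX leaves from 1 h to 10 d of salt, limma called 5 of the 61 higher, where 17.1% of all genes were, and 4 lower, where 8.14% were. In salt roots it called 5 higher (7.15% of all genes) and 4 lower (9.07%). From 1 h to 2 w of waterlogging it called 4 higher (3.96%) and 1 lower (1.07%) in leaves, and 5 higher (8.85%) and 6 lower (13.3%) in roots. These shares of the list were 8.2 and 6.56% in salt leaves and the same in salt roots. Under waterlogging they were 6.56 and 1.64% in leaves and 8.2 and 9.84% in roots. They were below those of all genes in salt leaves and waterlogging roots, but by little for lower in salt leaves and higher in waterlogging roots. In salt roots the share called higher was slightly above that of all genes and the share called lower was below it, from only 5 genes and 4 genes. In waterlogging leaves both were above, from only 4 genes and 1 gene. These differences were not tested, and shares this near to those of all genes are not read as results about the list. In NN the risers were 2 in salt leaves (20.5% of all genes), 2 in salt roots (11.1%), 1 in waterlogging leaves (5.31%) and 3 in waterlogging roots (8.81%). In the same order 43, 39, 40 and 43 of the 61 had passed the filter through TX alone. Such genes were hardly measured in NN and could hardly be called there. The few risers in NN were thus partly built in by the choice and are not set against all genes.

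These counts rested on single libraries in places. Without the 2 NN libraries 14 of the 61 changed in TX salt leaves in place of 9, from the same TX values and a spread estimated without those libraries. Without replicate 2 of TX roots at 1 h, 3 changed in salt roots in place of 9, and without replicate 1 or 2 at 1 h or replicate 2 at 2 w, 1 changed in waterlogging TX leaves in place of 5. Without replicate 1 of TX roots at 1 h of waterlogging, a library with 14.6% of its FPKM in ENSRNA rows, 22 changed in place of 11. In NN salt roots 10 rose in place of 2 without replicate 1 at 10 d, which leaves the replicate that stood apart. In NN salt leaves the 2 risers became 1 without replicate 1 at 10 d and 0 without replicate 2 at 10 d or replicate 2 at 1 h, and the 1 riser of NN waterlogging leaves became 0 without either replicate at 1 h or replicate 2 at 2 w.

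HORVU0Hr1G000760, on an unplaced sequence (0H), moved most. In TX roots it was at 93.2 and 102.1 FPKM after 1 h of salt, 401.0 and 440.6 FPKM after 24 h, and 1030 and 930.5 FPKM after 10 d, and it rose by 3.31 log2 units from 1 h to 10 d (SE 0.42, adjusted p = 0.00143 in limma). In NN roots it was at 1.6 and 3.57 FPKM after 1 h, and at 23.1 and 60.6 FPKM after 10 d. It rose there by 3.48 (SE 0.42, adjusted p = 0.000521), and both NN replicates at 10 d were still below every TX root library under salt. The test of the difference between varieties in this rise gave -0.17 (SE 0.59, adjusted p = 0.92).

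In TX roots under waterlogging HORVU0Hr1G000760 was at 31.6 and 26.03 FPKM after 1 h, 475.7 and 299.0 FPKM after 72 h, and 708.3 and 1686 FPKM after 2 w. It rose by 5.20 (SE 0.42, adjusted p = 7.49e-05 in limma), and in NN from 0.944 and 1.01 FPKM to 76.5 and 40.9 FPKM, a rise of 4.85 (SE 0.42, adjusted p = 9.62e-05). Every NN root library at 72 h and 2 w was above every TX root library at 1 h, and below every TX root library of its own time. In TX leaves it rose by 4.62 from 1 h to 10 d of salt (SE 0.91, adjusted p = 0.00338), from 5.66 and 2.06 to 102.1 and 118.6 FPKM. Its unstressed levels in TX roots were 666.7 and 1289 FPKM in the salt experiment and 340.3 and 104.6 FPKM in the waterlogging experiment, above those after 1 h of stress in the same experiment.

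HORVU0Hr1G000730 lies 2 places before HORVU0Hr1G000760 in the order of identifiers. In NN roots it was listed at 0 in both replicates after 1 h of waterlogging, at 86.4 and 115.2 FPKM after 72 h and at 27.8 and 11.4 FPKM after 2 w. In TX roots it was at 2.19 and 3.09, 138.2 and 98.7, and 33.9 and 65.3 FPKM at the same times. At 72 h the varieties overlapped, and TX minus NN was 0.23 (SE 0.42, adjusted p = 0.86 in limma). From 1 h to 2 w it rose by 3.74 in TX (adjusted p = 0.000299) and by 4.24 in NN (adjusted p = 0.000168), and the rise did not pass the test of a difference between varieties (-0.50, SE 0.59, adjusted p = 1). In salt roots it was at 0 and 0 FPKM in NN after 1 h and at 13.1 and 15.2 FPKM after 10 d, a rise of 3.92 (SE 0.62, adjusted p = 0.00181). Without replicate 2 at 10 d the rise was 3.82 (adjusted p = 0.0178).

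HORVU1Hr1G005230 was the other gene called in only 4 of the 12 comparisons. In NN leaves it was at 4.41 and 0 FPKM after 1 h of salt and at 9.07 and 7.74 FPKM after 10 d, a rise of 2.01 (SE 0.67, adjusted p = 0.0333 in limma) that was 3.23 (adjusted p = 0.000826) without replicate 1 at 1 h. In TX leaves it went from 7.30 and 5.89 to 30.8 and 44.6 FPKM and rose by 2.33 (adjusted p = 0.0207). Its replicates could differ widely, with 32.7 and 196.9 FPKM in TX leaves after 2 w of waterlogging.

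From 1 h to the last time, HORVU3Hr1G034110 fell in TX roots under salt and rose in TX leaves under waterlogging. In TX roots it was at 55.8 and 38.7 FPKM after 1 h of salt, 81.4 and 95.5 FPKM after 24 h, and 2.09 and 13.0 FPKM after 10 d, a fall of 2.85 (SE 0.56, adjusted p = 0.00866 in limma). The late replicates differed from each other, and both were below every earlier one. Unstressed TX roots of the salt experiment were at 52.9 and 52.1 FPKM. In TX leaves under waterlogging HORVU3Hr1G034110 was at 2.42 and 0.978 FPKM after 1 h, 1.96 and 1.28 FPKM after 72 h, and 23.7 and 32.9 FPKM after 2 w. It rose by 3.48 from 1 h to 2 w (SE 0.33, adjusted p = 0.00193). Its unstressed TX leaves of that experiment were at 15.2 and 13.2 FPKM, above those at 1 h and 72 h and below those at 2 w. In NN leaves under waterlogging it was listed at 0 in every library. The differences between varieties in these changes, -2.95 in salt roots (adjusted p = 0.289) and 3.48 in waterlogging leaves (adjusted p = 0.22), did not pass.

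HORVU5Hr1G034180 fell in TX under salt in both tissues. In TX leaves it was at 30.2 and 34.9 FPKM after 1 h, 27.9 and 22.7 FPKM after 24 h, and 7.83 and 5.83 FPKM after 10 d, a fall of 2.11 (SE 0.20, adjusted p = 7.61e-05 in limma). In NN leaves it was at 1.43 and 1.53 FPKM after 1 h and 1.02 and 0.782 FPKM after 10 d, a change of -0.39 (adjusted p = 0.135). TX stayed above NN at every time, with no overlap. Its unstressed TX leaves of that experiment were at 4.91 and 17.3 FPKM. In TX roots it fell by 1.94 (adjusted p = 0.00454), from 41.9 and 23.2 to 6.41 and 8.55 FPKM.

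A change from 1 h to the last time that differed between the varieties was called in 1 of the 61 in salt leaves (0.504% of all genes in either direction), that of HORVU5Hr1G034180, at -1.72 (SE 0.28, adjusted p = 0.0362 in limma). Without the 2 NN libraries it was -1.69 with an adjusted p of 0.0573. It passed in 1 of the 8 fits that left out 1 library each. Without the 2 NN libraries, which leaves 1 NN leaf library at 1 h, HORVU6Hr1G003800 and HORVU1Hr1G008900 had differences of 2.06 and 1.61. HORVU6Hr1G003800 was at 2.03 and 1.81 FPKM in TX leaves at 1 h and at 12.3 and 10.1 FPKM at 10 d. The NN leaf libraries left at these times were all listed at 0 for it, so its difference is the TX rise alone. HORVU1Hr1G008900 was at 8.22 and 10.0 FPKM in TX leaves at 1 h and at 24.8 and 27.4 FPKM at 10 d, beside 0.277 and 0.623 and 0.517 and 0.331 FPKM in NN. Without replicate 2 of the NN leaves at 1 h, which leaves the replicate that stood apart, 19 were called. In salt roots 0 of the 61 were called (0.0229% of all genes), in waterlogging leaves 0 (0%), and in waterlogging roots 0 (0.153%). An unadjusted p under 0.05 in limma was reached by 16 of the 61 in salt leaves and 9 in salt roots. In waterlogging leaves 9 reached it and in waterlogging roots 22. In the same order 13.3, 10.8, 4.13 and 6.02% of all genes did. Of the 61, 43, 39, 40 and 43 had passed the filter through TX alone. Where NN was near 0 such a difference is mostly the change in TX, so these counts do not show responses that differ between varieties. Without replicate 2 of TX roots at 10 d, 7 were called in salt roots, and without replicate 2 of TX roots at 1 h or at 2 w, 1 was called in waterlogging roots.

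HORVU3Hr1G108540 was the single gene that fell in TX leaves under waterlogging, from 15.2 and 12.3 FPKM after 1 h to 4.85 and 3.22 FPKM after 2 w, by 1.57 (SE 0.34, adjusted p = 0.0374 in limma). The 72 h libraries were between, at 8.36 and 9.13 FPKM. In unstressed TX leaves of the waterlogging experiment HORVU3Hr1G108540 was at 5.516 and 6.498 FPKM. These levels were below those at 1 h and 72 h and above those at 2 w. HORVU5Hr1G027630 fell in TX roots under waterlogging, from 6.53 and 4.77 to 0.723 and 1.71 FPKM, by 1.61 (SE 0.21, adjusted p = 0.000663). In NN leaves HORVU5Hr1G082120 rose under waterlogging from 0.932 and 1.39 to 3.69 and 8.47 FPKM, by 1.63 (SE 0.36, adjusted p = 0.0327), and replicate 2 at 2 w was 1 of the libraries rich in ENSRNA rows. It was lower at 10 d than at 1 h in NN salt leaves (16.9 and 4.74 to 2.05 and 1.48 FPKM), and without the library that stood apart the fall was 1.06 (adjusted p = 0.0385).

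The third question was in which tissue the genes were higher in stressed TX, from the mean of the 3 stressed times and 1 fit per experiment on its stressed leaves and roots. Under salt limma called 8 of the 61 higher in roots, where 25.9% of all genes were, and 3 higher in leaves, where 11.4% were. Under waterlogging it called 14 higher in roots (24.2% of all genes) and 1 higher in leaves (13.1%). The shares were 13.1, 4.92, 23 and 1.64% of the list, each below the share of all genes, and these differences were not tested. The choice asked for TX above NN in both leaves and roots, so genes confined to leaves or to roots could not enter the list. Lower shares than those of all genes were thus partly built in, and 23 against 24.2% is close. The 8 genes higher in roots under salt were HORVU0Hr1G000730, HORVU0Hr1G000760, HORVU0Hr1G007650, HORVU0Hr1G008800, HORVU0Hr1G023290, HORVU3Hr1G034110, HORVU6Hr1G003800 and HORVU6Hr1G082220, and all 8 also passed under waterlogging. How many of all genes passed in both experiments was not counted, so this overlap cannot be set against that of other genes.

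HORVU0Hr1G000760 had the largest root difference in both experiments, 3.68 under salt (SE 0.44, adjusted p = 1.49e-06 in limma) and 2.97 under waterlogging (SE 0.63, adjusted p = 0.000764). HORVU0Hr1G029600 was higher in leaves under salt, by 1.55 (SE 0.17, adjusted p = 4.87e-07). Its stressed TX leaf libraries were at 5.79 to 28.5 FPKM and its root libraries at 2.81 to 7.75 FPKM, and replicate 2 of the leaves at 10 d was the single leaf library within the root range. Under waterlogging its root minus leaf difference was -0.24 (adjusted p = 0.507). HORVU5Hr1G027630 was higher in leaves under waterlogging, by 1.33 (SE 0.12, adjusted p = 1.53e-07), with 4.36 to 11.2 FPKM in leaves and 0.723 to 6.53 FPKM in roots, so the tissues overlapped at their ends.

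By the chromosome in the identifier, 15 of the 61 were on 5H (24.6%), 14 on 3H (23.0%), 11 on unplaced sequences written 0H (18.0%), 7 on 1H, 6 on 6H, 5 on 4H, 3 on 7H and 0 on 2H. Of the 22785 genes seen in controls, 15.4% were on 5H, 15.0% on 3H, 3.78% on 0H and 16.6% on 2H. The 67 genes of the opposite list had 15 on 5H, 11 on 3H, 3 on 0H, 14 on 1H, 1 on 6H and 5 on 2H. No test was made of these shares.

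**Figure D5:**
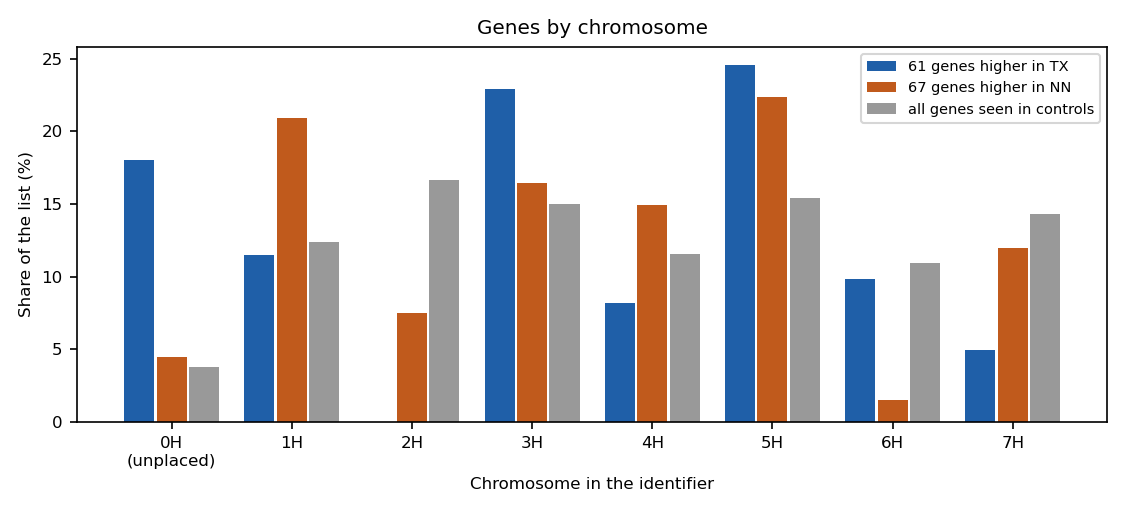
Share in percent of the 61 genes higher in TX controls (blue), the 67 genes higher in NN controls (orange) and the 22785 genes seen in controls (grey) by the chromosome in the identifier. The 61 have 18.0% on unplaced sequences against 3.78% of genes seen, and none on 2H against 16.6%.

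The median TX minus NN of a gene over the 12 stressed comparisons had a median of 2.79 on 0H, 2.80 on 1H, 2.77 on 3H, 2.99 on 4H, 2.54 on 5H, 2.63 on 6H and 1.88 on 7H. At or below 0.5 FPKM in all 22 NN libraries were 11 of 14 genes on 3H, 10 of 15 on 5H and 4 of 5 on 4H, but 2 of 11 on 0H, 1 of 7 on 1H, 2 of 6 on 6H and 1 of 3 on 7H. Called in all 12 comparisons were 6 of 14 on 3H, 4 of 15 on 5H, 3 of 5 on 4H and 3 of 7 on 1H, and 1 of 11 on 0H. The share of all genes called in all 12 was not computed. The 4 genes with the widest range over the stressed TX libraries, leaves and roots together, were HORVU0Hr1G000760 (9.67 log2 units), HORVU0Hr1G000730 (6.19), HORVU1Hr1G005230 (5.85) and HORVU3Hr1G034110 (5.61), against a median range of 2.22. For HORVU0Hr1G000760 and HORVU1Hr1G005230 the low end was replicate 2 of the TX leaves at 72 h of waterlogging. They were at 1.07 and 2.44 FPKM there, beside 64.5 and 48.8 FPKM in replicate 1. That library had 19.3% of its FPKM in ENSRNA rows, so these ranges rest in part on it.

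Some of the 61 were near neighbours in the order of identifiers. Within 5 places of each other were 12 genes in 5 runs: HORVU0Hr1G000730 and HORVU0Hr1G000760, HORVU0Hr1G008750 and HORVU0Hr1G008800, HORVU5Hr1G119470 and HORVU5Hr1G119500, and 2 runs of 3 genes. The opposite list had 8 genes in 4 runs. Where near neighbours are copies of each other, reads could be split between them, and the sources used here do not say how such reads were counted.

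The run on 6H held HORVU6Hr1G082220, HORVU6Hr1G082230 and HORVU6Hr1G082250 within 4 places, with the first pair adjacent. HORVU6Hr1G082220 was at 1.11, 6.92 and 39.9 FPKM (lowest, median, highest) in the 24 stressed TX libraries, and at most at 0.0932 FPKM in the 22 NN libraries. HORVU6Hr1G082230 was at 8.50, 12.03 and 29.3 FPKM in TX and at 0.304, 0.690 and 1.89 FPKM in the 22 NN libraries, and HORVU6Hr1G082250 at 1.32, 4.13 and 15.2 FPKM in TX and at most at 1.65 FPKM in NN. The 3 were thus higher in TX at different levels. HORVU6Hr1G082220 was higher in TX roots than leaves by 2.90 under salt (SE 0.20, adjusted p = 1.52e-09 in limma) and by 2.39 under waterlogging (adjusted p = 4.3e-07), while the other two had differences of 0.12 and -0.01 under salt that did not pass, and of 0.61 (adjusted p = 0.00225) and 0.63 (adjusted p = 0.0436) under waterlogging, below the size of 1 that a call needs. From 1 h to 2 w of waterlogging HORVU6Hr1G082220 and HORVU6Hr1G082230 fell in TX roots by 1.07 (adjusted p = 0.00303) and 1.05 (adjusted p = 0.00342), and HORVU6Hr1G082250 changed by -0.35 (adjusted p = 0.304).

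The run on 5H held HORVU5Hr1G068790, HORVU5Hr1G068870 and HORVU5Hr1G068900 within 9 places. In stressed TX their lowest, median and highest levels were 2.95, 6.80 and 17.4 FPKM, 0.453, 1.48 and 3.16 FPKM, and 2.89, 4.43 and 9.17 FPKM. In the 22 NN libraries their highest levels were 0.0533, 0 and 0.892 FPKM, and HORVU5Hr1G068870 was listed at 0 in all 22. The stressed TX and NN libraries did not overlap for any of the 3. In waterlogging TX roots the change from 1 h to 2 w was 1.06 (SE 0.13, adjusted p = 0.000532 in limma) for HORVU5Hr1G068790, 0.90 (adjusted p = 0.00237) for HORVU5Hr1G068870 and 0.86 (adjusted p = 0.00876) for HORVU5Hr1G068900, and only the first was beyond 1. In the leaves the changes were 1.78 (adjusted p = 0.0183), 1.05 (adjusted p = 0.0593) and 0.94 (adjusted p = 0.137).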

How the data were processed

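RNA of leaves and roots of NN and TX was measured in 64 libraries. The authors deposited FPKM in 1 table per experiment, and per the labels the submitters' notes name HISAT, HISAT2 and featureCounts 1.5.0. The build and annotation they used were not named in the sources read here, and 82 other columns of values were not used. Identifiers were not found in the RefSeq gene table used here (0 matches).

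Groups follow the sample labels, with 2 replicates each. Members and lists were chosen with earlier results of these data known. Tests used limma 3.58.1 (R 4.3.3), with moderated, trended variances on log2(FPKM + 1), over the 12 stressed libraries of an experiment and tissue, or 24 for the comparison of tissues, without the controls, because the choice of the genes used them. Tested rows reached 0.5 FPKM in 2 or more libraries, each table was fitted apart, and a call needs a Benjamini-Hochberg adjusted p under 0.05 over all rows and a log2 difference beyond 1. Each of the 26 contrasts was fitted on the whole table, and the fit was tested on simulated data.

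Genes were named by a rule: the 2 with the largest smallest control difference, the 2 largest and 2 smallest of the smallest stressed difference, the largest called rise and fall per experiment and tissue in TX and the largest rise in NN, the largest called tissue differences, and the longest runs. Alternatives were a pseudocount of 0.1, no filter, median-ratio scaling, equal totals over HORVU rows, the replicate number as a block, controls kept in the fit, leaving out the 2 NN libraries that stood apart and each replicate in turn. One more, without libraries rich in ENSRNA rows, was chosen after seeing the data. FPKM hold no totals, so depth is known only as a ratio between libraries. Tables and plots were made in Python 3.11.15 with pandas 2.3.3, numpy 2.4.6 and matplotlib 3.10.9.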

Additional observations from a re-analysis of the deposited data

Results flagged for a closer look

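The change of HORVU5Hr1G034180 from 1 h to 10 d of salt in leaves differed between the varieties by -1.72 on the log2(FPKM + 1) scale (SE 0.28, adjusted p = 0.0362 in limma), a difference between groups under the same contrast. The gene fell in TX, from 30.2 and 34.9 to 7.83 and 5.83 FPKM, and was between 0.782 and 1.59 FPKM in every stressed NN leaf library of the salt experiment. The difference was negative in all 15 alternatives and passed in 4 of them. In the leaf fit, leaving out the 2 NN libraries that stood apart and leaving out replicate 1 of NN at 1 h are the same fit, so the 15 are not all distinct. It was -1.58 (adjusted p = 0.152) with a pseudocount of 0.1, -1.72 (adjusted p = 0.246) with the controls kept in the fit, and -1.69 (adjusted p = 0.0573) without the 2 NN libraries that stood apart.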

How the results depend on the processing

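Counts are of the 61 genes, and the cause of a changed count was not tested unless said. Without the 2 NN libraries that stood apart, 56 were called TX above NN in salt leaves at 1 h (33 otherwise), 14 changed in TX salt leaves (9) and 2 differed between varieties in their change there (1). With a pseudocount of 0.1, 4 changed in TX salt roots (9), 4 rose in NN salt roots (2), 1 changed in TX waterlogging leaves (5) and 0 differed between varieties in salt leaves. With no filter, 0 rose in NN salt leaves (2) and 3 changed in TX waterlogging leaves. With median-ratio scaling, 0 rose in NN salt leaves, 0 in NN waterlogging leaves (1), and 2 in salt leaves and 1 in waterlogging roots (0) differed between varieties. With the controls kept in the fit, 8 changed in TX waterlogging leaves. Deviations of same-numbered replicates were correlated between 15 pairs of groups per fit. The correlation was above 0.1 in 3 pairs in salt leaves, 5 in salt roots, 5 in waterlogging leaves and 8 in waterlogging roots. It ran from -0.11 to 0.19, -0.32 to 0.51, -0.68 to 0.65 and -0.24 to 0.36 in the same order. The libraries were treated as unpaired, a choice that these values do not settle. With the replicate number as a block, 0 differed between varieties in salt leaves and 3 changed in TX waterlogging leaves, and every other count stayed within 1.5 times. Without libraries rich in ENSRNA rows, which leaves fewer libraries, TX above NN was called in 12, 0 and 8 genes in waterlogging leaves, 1 changed in TX and 0 rose in NN there, and 22 changed in TX waterlogging roots. Among named genes, HORVU0Hr1G007650 in salt leaves at 1 h turned from -0.03 to 1.06 with a pseudocount of 0.1 and to 1.54 without the 2 NN libraries, to 0.65 without replicate 2 of TX and to -1.61 without replicate 2 of NN. HORVU7Hr1G018110 turned from 0.22 to -1.20 without replicate 2 of NN and was 1.65 without replicate 1.

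Leaving out each replicate in turn gave these ranges of called genes. For TX above NN they were 25 to 56, 29 to 34 and 35 to 48 in salt leaves by time, 40 to 43, 34 to 43 and 37 to 56 in salt roots, 17 to 23, 21 to 30 and 30 to 42 in waterlogging leaves, and 55 to 59, 54 to 55 and 55 to 59 in waterlogging roots. For changes in TX the range was 8 to 9 (salt leaves), 3 to 12 (salt roots), 1 to 5 (waterlogging leaves) and 8 to 22 (waterlogging roots). For rises in NN they were 0 to 3, 2 to 10, 0 to 1 and 2 to 4 in the same order, and for the difference between varieties 0 to 19, 0 to 7, 0 to 0 and 0 to 1. For tissues they were 10 to 12 under salt and 10 to 17 under waterlogging. Depth, known only as a ratio, fell to 0.201 of the reference library in waterlogging libraries, and 2 libraries per group limit what single genes can show.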
